A study of Mus musculus with 2 samples.

Results

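The genes described here are the G1 cyclins and their inhibitors: the D-type cyclins Ccnd1, Ccnd2 and Ccnd3, the E-type cyclins Ccne1 and Ccne2, the CIP/KIP inhibitors Cdkn1a (p21), Cdkn1b (p27) and Cdkn1c (p57), the INK4 inhibitor Cdkn2c (p18) and the transcription factor E2f1. They were taken by symbol from a list of 10 names, and every probe whose accession maps to one of them was kept. Of the 10 genes, 9 had at least 1 probe, 15 probes in all, and no probe mapped to Ccnd1, which is not analysed here. A probe counted as detected where Feature Extraction, the scanner software, flagged it well above background on both arrays in at least 1 of the RNA pools. By that measure 8 of the 10 genes were detected, among 13899 detected genes in the series, and 12 of the 15 probes.

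RNA from the ventral prostate of 6 ARR2PB-miR32 transgenic mice was pooled, as was RNA from 6 wild-type mice, all 6 months old and of the FVB/N strain (also spelled FBV/N in the labels). The ARR2PB promoter derives from the probasin gene and is active in androgen-stimulated prostate epithelium, so the transgene adds miR-32 to epithelial cells and not to stroma or leukocytes by design. The growth text of the labels names ventral or dorsolateral lobes, while the tissue field of each array reads ventral prostate. Both pools were hybridised together to 2 two-colour Agilent arrays, with the transgenic pool in Cy3 on array 1 and in Cy5 on array 2. The arrays hold the same pair of pools, so there is 1 replicate of each genotype, differences could not be tested for significance, and every SD below is that of 2 technical measurements without the spread between mice.

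Entry into S phase is controlled by the products of these genes. D-type cyclins bind CDK4 or CDK6 and E-type cyclins bind CDK2, and the active kinases phosphorylate the retinoblastoma protein, which releases E2F factors to switch on the genes of DNA replication. INK4 proteins block CDK4 and CDK6, and CIP/KIP proteins bind cyclin-CDK complexes more broadly. In the prostate, p27 is known as a brake on epithelial growth, and in human cells p57 has been reported as a target of miR-25, which shares its seed with miR-32.

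The sequences of that seed family are shown because the transgene adds 1 of its members. RefSeq's GRCm38.p6 annotation holds 6 mature mouse miRNAs with the same bases 2 to 8, the seed, which are in capitals, and the rest of each molecule differs.
mmu-miR-32-5p: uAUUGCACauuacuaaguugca
mmu-miR-25-3p: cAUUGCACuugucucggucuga
mmu-miR-92a-3p: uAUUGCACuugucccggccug
mmu-miR-92b-3p: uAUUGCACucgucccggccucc
mmu-miR-363-3p: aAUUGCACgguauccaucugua
mmu-miR-367-3p: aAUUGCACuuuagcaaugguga
The miR-32 gene lies on chromosome 4 of that build, at chr4:56895272-56895293 on the minus strand for the mature arm. Sites that pair with the seed were not searched for in the messenger RNAs.

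None of the 8 detected genes passed the rule for a difference between the pools, which asks for a 2-fold difference in the mean of the arrays (a log2 ratio of 1 or more, or -1 or less) and for 1.5-fold or more on each array alone, with equal signs (0 higher and 0 lower). Of all detected genes 1.09% were higher and 3.53% lower in the transgenic pool by that rule, so a count of 0 among 8 genes is not a result about these genes. Their median log2 ratio of transgenic over wild type was -0.13, against 0.01 for all detected genes, and single genes ranged from -0.87 (Ccnd2) to 0.42 (Ccnd3). With a looser rule of a 1.5-fold mean ratio and the same sign on each array, Ccnd2 was lower (1 of 8 genes) and 0 were higher, against 7.75% and 3.4% of all detected genes. With loess, the ratio was below 0 on both arrays for Ccnd2, Cdkn1a and E2f1, above 0 on both for Ccnd3 and Ccne1, and changed sign between arrays for Cdkn1b, Cdkn1c and Cdkn2c. Among all detected genes 27.3% were below 0 on both arrays and 24.6% above, so 3 and 2 of 8 are not read as a result about these genes. Signs on single arrays moved with the processing for Ccnd3, Cdkn1a, Cdkn1b, Cdkn2c, Ccne1 and 1 of the Ccnd2 probes, as given with each gene.

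**Figure D1:**
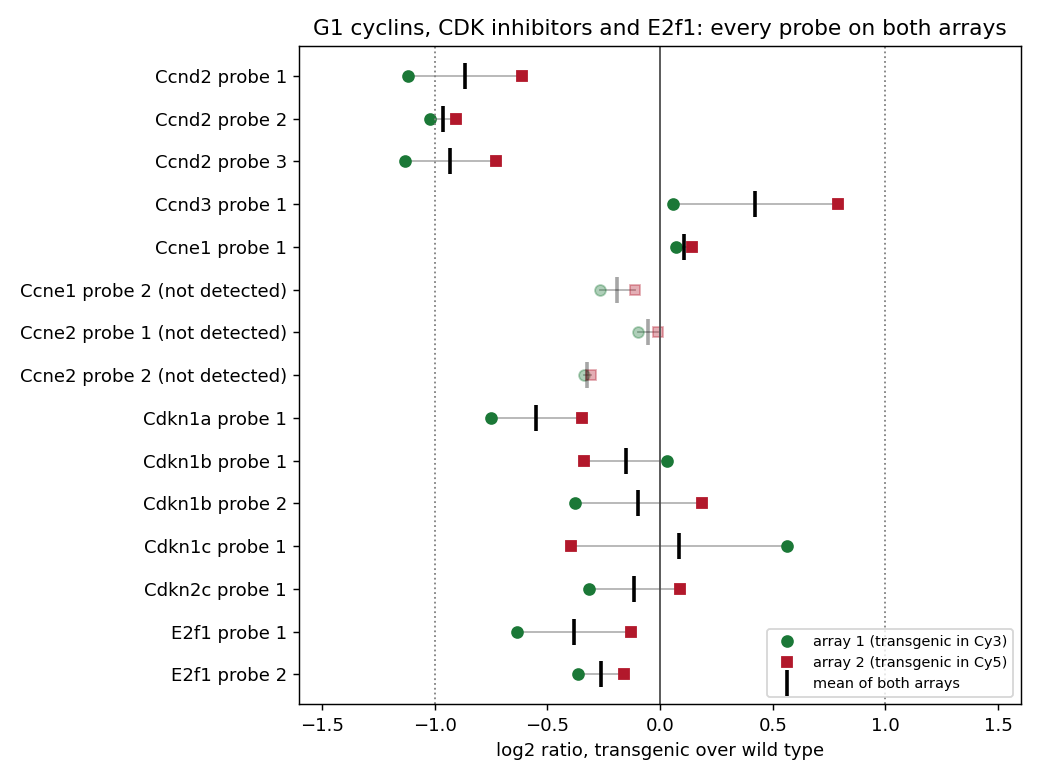
Log2 ratio of transgenic over wild type (x axis) of each of the 15 probes (rows), on array 1 (circles), on array 2 (squares) and as their mean (black bars). Dotted lines mark a 2-fold difference, and probes that were not detected are pale. The 3 Ccnd2 probes sit farthest from 0, with means of -0.87, -0.96 and -0.93, and the arrays lie on opposite sides of 0 for Cdkn1b, Cdkn1c and Cdkn2c.

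Ccnd2, a D-type cyclin used by lymphocytes among many other cells, had the lowest ratio of these genes, and its 3 probes agreed. Levels here are normalized intensities in arbitrary units, which can be compared between pools for a probe but not between probes. The brightest probe read 906 and 954 in the transgenic pool on arrays 1 and 2, against 1965 and 1460 in the wild-type pool. The second read 798 and 791 in the transgenic pool, against 1621 and 1481 in the wild-type pool. The third read 539.6 and 562 in the transgenic pool, against 1184 and 933 in the wild-type pool. Each of the 3 probes was lower in the transgenic pool on both arrays, and for none did the levels of the pools overlap. Over all detected genes, levels did not overlap for 24.3% with the transgenic pool lower and for 21.1% with it higher.

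The mean log2 ratio of Ccnd2 was -0.87 ± 0.35 by the brightest probe, or 1.82-fold lower, -0.96 ± 0.08 (1.95-fold lower) by the second and -0.93 ± 0.29 (1.91-fold lower) by the third (SD of the 2 arrays). By the brightest probe, 4.42% of detected genes had a lower ratio. On array 1 alone that probe stood at -1.12, past a 2-fold difference, and on array 2 alone at -0.61. With median centring in place of loess it stood at -0.01 on array 1 and -1.55 on array 2, so the value on either array alone moved with the dye correction, while their mean was -0.78. The second probe then stood at 0.06 on array 1 and -1.84 on array 2. The 3 probes detect the same transcript in the same labelled RNA, so they are no independent samples.

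Markers of other cell types were lower in the same pool. Of 38 detected leukocyte markers, 28 were called lower and 0 higher, with a median log2 ratio of -1.51, and their summed level was 11131 and 12321 in the transgenic pool against 52196 and 58770 in the wild-type pool. Of all detected genes 3.53% were called lower and 1.09% higher. Some of the 38 markers passed detection only through the wild-type pool, where they were higher. Within the B and plasma cell list 6 of 8 detected markers were called lower, from Cd79b at -3.80 ± 0.20 to Cr2 at -0.47 ± 0.10. The macrophage and dendritic cell list had 9 of 13 lower (Ctss -2.62 ± 0.61 to Fcgr3 -0.70 ± 0.23), the T and NK cell list 6 of 9 (Icos, given below, to Cd3e 0.01 ± 0.53) and the pan-leukocyte list 7 of 8 (Cd52 -2.79 ± 0.18 to Lcp1 -0.81 ± 0.34). Of the 38 markers, Icos alone did not clear background on either array in the transgenic pool. It read 2.95-fold lower there. The lowest signal well above background was no higher than its own level and so did not stand in, and the fold rests on a signal that was not well above background. Fibroblast and matrix genes had 4 of 10 lower (Thy1 -2.10 ± 0.83 to Fn1 -0.20 ± 0.02), with sums of 15610 and 10058 in the transgenic pool against 18763 and 38281 in the wild-type pool. Most of these sums came from Dcn (decorin), singled out after its values were seen, which read 11497 and 6134 in the transgenic pool against 10530.2 and 29557 in the wild-type pool. Without it the sums were 4113 and 3924 in the transgenic pool, against 8233 and 8724 in the wild-type pool. In smooth muscle (Cnn1 -0.77 ± 0.11 to Smtn -0.02 ± 0.32) 0 of 9 were called lower, in basal epithelium (Trp63 -0.55 ± 0.70 to Krt17 -0.16 ± 0.05) 0 of 8, and in luminal epithelium (Tspan8 -0.23 ± 0.68 to Epcam 0.90 ± 0.11) 0 of 12, with a luminal median of 0.13. Yet 7 of the 9 smooth muscle genes (median -0.37) and all 8 basal genes (median -0.42) were below 0 on both arrays, against 27.3% of all detected genes. By the looser rule 2 smooth muscle genes were lower and 2 luminal genes higher. Of the 12 luminal genes 6 were above 0 on both arrays and 0 below. The part of these cell types in the Ccnd2 value was not tested, and in pooled tissue fewer cells of a type and less RNA per cell cannot be told apart.

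Ccnd3, the D-type cyclin needed for thymocyte and germinal centre B cell expansion in mice, stood on the other side. Its probe read 2456 and 3140 in the transgenic pool on arrays 1 and 2, against 2363 and 1815 in the wild-type pool. Both transgenic values lay above both wild-type values, but on array 1 by little. The mean log2 ratio was 0.42 ± 0.52, or 1.34-fold higher, made of 0.06 on array 1 and 0.79 on array 2, so the SD exceeded the mean. Under median centring these ratios were 1.22 and -0.14, and in the authors' deposited table -0.07 and 0.72. On both arrays its ratio lay above that of Ccnd2, by 0.06 against -1.12 on array 1 and 0.79 against -0.61 on array 2, and this difference between the paralogs had no replicate check.

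Of the E-type cyclins, Ccne1 was measured by 1 detected probe and Ccne2 by none. Ccne1 read 203 and 209.97 in the transgenic pool, against 193 and 190.1 in the wild-type pool, a mean log2 ratio of 0.11 ± 0.05. With loess that was the smallest spread between arrays among the detected probes of these genes. Feature Extraction's ratios were -0.43 on array 1 and 0.50 on array 2, and those of the authors' deposited table -0.51 and 0.44, with a mean of -0.03. No direction is read from it. The other Ccne1 probe cleared background on 0 arrays in the transgenic pool and on 1 in the wild-type pool, with levels of 77.4 and 74.3 in the transgenic pool against 93.2 and 80.3 in the wild-type pool. Both Ccne2 probes cleared it on 1 array in the transgenic pool and on 0 in the wild-type pool. The first Ccne2 probe read 86.1 and 77.5 in the transgenic pool, against 92.1 and 77.9 in the wild-type pool, and the second 80.6 and 62.6 against 102 and 77.4. A level of Ccne2 could not be told from background here, and no ratio is drawn from it.

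Cdkn1a, which encodes p21, the inhibitor that p53 induces after DNA damage, had the lowest ratio of the inhibitors. Its probe is printed as 10 spots on each array, and after outlier spots were left out it read 405 and 444 in the transgenic pool, against 679.8 and 565 in the wild-type pool. The levels of the pools did not overlap after loess, with the transgenic pool lower on both arrays. With median centring the ratio was 0.19 on array 1 and -1.21 on array 2, with a mean of -0.51. The mean log2 ratio after loess was -0.55 ± 0.28, or 1.46-fold lower, and 8.50% of detected genes had a lower ratio. On array 1 all 8 kept spots lay between -0.94 and -0.59, with an SD of 0.12 over spots. On array 2 all 10 spots lay between -0.57 and -0.11, with an SD of 0.16. The array means of -0.75 and -0.35 were thus farther apart than the SD over spots of either array, and after loess 0 spots lay above 0 on either.

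Of 19 detected p53 targets beside Cdkn1a, 1 was called lower and 0 higher, and the median was -0.15. On both arrays 12 of the 19 were below 0 and 5 above, against 27.3% and 24.6% of all detected genes. The lowest were Pmaip1 (NOXA, a proapoptotic BH3 protein) at -1.06 ± 0.21, which in the transgenic pool was bright enough on 1 array only, and Phlda3, an inhibitor of AKT, at -0.80 ± 0.48. The highest were the kinase gene Plk2 at 0.49 ± 0.04 and the stress gene Gadd45a at 0.48 ± 0.31. TGF-beta also induces Cdkn1a, and of 9 detected genes under TGF-beta or BMP, 2 were called lower and 0 higher, with a median of -0.31. By the looser rule 4 of the 9 were lower, and 8 were below 0 on both arrays and 0 above. Of all detected genes 7.75% were lower by that rule and 27.3% were below 0 on both arrays. The called genes were Id4 (-1.19 ± 0.16), again measured on 1 array there, and the matrix gene Tgfbi (-1.10 ± 0.70), while Id2 (-0.20 ± 0.26) and Skil (0.09 ± 0.35) stood highest.

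Cdkn1b, the gene of p27, showed no settled direction. Its brighter probe, printed as 10 spots, read 232 and 193 in the transgenic pool, against 226 and 244 in the wild-type pool. The other probe read 190.1 and 224 in the transgenic pool, against 247 and 197 in the wild-type pool. The pools overlapped for both probes, and after loess the 2 probes had opposite signs on each array. With median centring both were above 0 on array 1 (0.67 and 0.24) and below 0 on array 2 (-0.93 and -0.40). The mean log2 ratio was -0.15 ± 0.26 by the first and -0.10 ± 0.40 by the second. Over spots of the first, 5 of 10 lay below 0 on array 1 and 8 of 9 on array 2, with SDs of 0.31 and 0.30. Ratios were not corrected for position on the array. The part of position in the spread over spots, here and for Cdkn1a and E2f1, was not tested.

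FOXO factors induce Cdkn1b, and of 11 detected genes on a FOXO and PI3K list 0 were called in either direction (0 higher and 0 lower), with a median of -0.11. The lowest were Bcl2l11 (BIM) at -0.47 ± 0.29 and the repressor Bcl6 at -0.45 ± 0.30, and the highest was Sesn3 at 0.55 ± 0.18. Turnover of p27 and of cyclin E runs through SCF ubiquitin ligases. Of 11 detected genes on a list of G1 regulator turnover, which also holds parts of CUL4 ligases, the kinase gene Gsk3b and the deubiquitinase gene Usp28, 0 were called, and the median was 0.03. Fbxw7, which targets cyclin E for degradation, was lowest at -0.44 ± 0.10, then Skp1 at -0.15 ± 0.32, and Fbxo4, which has been tied to cyclin D1 turnover, was highest at 0.39 ± 0.76, then Cul4a at 0.15 ± 0.33. Skp2, the adaptor for p27, was not detected.

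Cdkn1c, the imprinted gene of p57, had the widest gap between arrays of these genes. It read 351 and 276 in the transgenic pool, against 237 and 363 in the wild-type pool. The pool labelled with Cy3 was the brighter on both arrays, so the ratio was 0.56 on array 1 and -0.39 on array 2. The mean was 0.09 ± 0.68, and 9.63% of detected genes had a larger SD between arrays. Feature Extraction's own ratios gave 0.15 and -0.11, closer together and again of opposite sign. No direction is read from it.

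Among 7 detected imprinted genes that are active in growing mouse tissues along with Cdkn1c, 0 were called and the median was 0.08. Dlk1 stood highest at 0.63 ± 0.33, then Gnas at 0.29 ± 0.43, and Grb10 (-0.27 ± 0.18) and Ndn (-0.26 ± 0.30) stood lowest. H19, Igf2 and Meg3 were not among the detected genes.

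Cdkn2c, the gene of the CDK4 and CDK6 inhibitor p18, read 679 and 704 in the transgenic pool, against 846 and 662 in the wild-type pool. The levels of the pools overlapped, and the mean log2 ratio was -0.11 ± 0.29. After loess its ratios were -0.32 on array 1 and 0.09 on array 2, and with median centring 0.70 and -0.81. Of the other CDK inhibitors on the list, only Cdkn2d (p19) was detected, at -0.33 ± 0.28, while Cdkn2a, Cdkn2b and Cdkn3 were not. Among 8 detected kinases and partners, 0 were called in either direction and the median was 0.05. Cdk4, the kinase partner of the D-type cyclins, was highest at 0.32 ± 0.08, then Cks1b at 0.21 ± 0.61, and Cks2 (-0.30 ± 0.41) and Ccnh (-0.27 ± 0.19) were lowest. Cdk2 and Cdk6 were not detected.

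**Figure D2:**
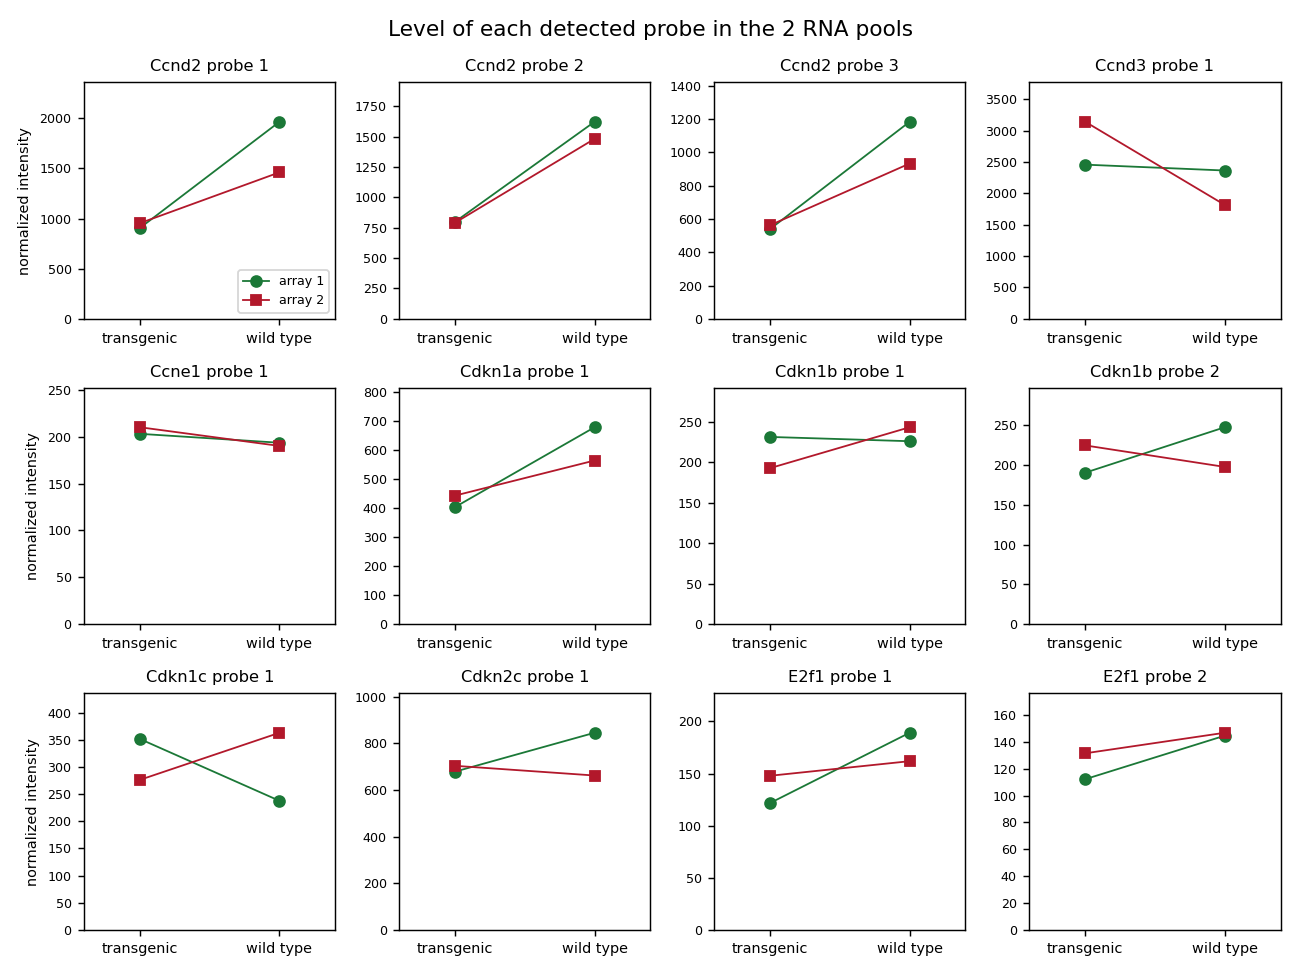
Normalized intensity (y axis, arbitrary units from 0) of each of the 12 detected probes in the transgenic and the wild-type pool, with lines joining the pools of array 1 (circles) and array 2 (squares). All 3 Ccnd2 probes, the Cdkn1a probe and both E2f1 probes run upward to the wild-type pool on both arrays. For Cdkn1b, Cdkn1c and Cdkn2c the lines of the arrays run in opposite directions.

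E2f1 lay near the limit of detection. Its brighter probe read 122 and 148 in the transgenic pool, against 189 and 162 in the wild-type pool. The other, printed as 10 spots, read 112 and 131 in the transgenic pool, against 145 and 147 in the wild-type pool. For both probes the transgenic pool was lower on each array, and it was well above background on 1 array, against 2 for the wild-type pool. E2f1 thus passed detection only through the wild-type pool, where it was higher, and its direction is not free of that selection. The mean log2 ratio was -0.38 ± 0.36, or 1.30-fold lower, by the first and -0.26 ± 0.15 by the second. With Feature Extraction's ratios the same probes gave -0.66 and -0.70, and the authors' deposited table does not hold a value for E2f1. Of the single spots, 9 of 10 lay below 0 on array 1 and 8 of 10 on array 2.

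**Figure D3:**
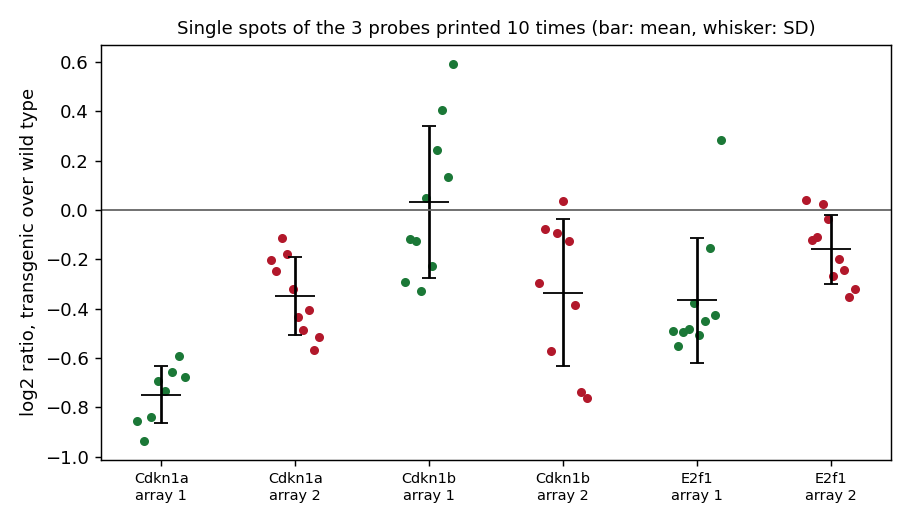
Log2 ratio of transgenic over wild type (y axis) of single spots of the probes printed 10 times, for Cdkn1a, Cdkn1b and E2f1 on each array, with outlier spots left out. Bars are means and whiskers SDs over spots. After loess all spots of Cdkn1a lie below 0 on both arrays, while those of Cdkn1b on array 1 are spread from -0.33 to 0.59.

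Of the other E2F and DP factors, 0 of 7 detected were called, with a median of 0.08. E2f2 (-0.55 ± 0.06) and E2f6 (-0.11 ± 0.04) were lowest, and E2f4 (0.18 ± 0.41) and Tfdp2 (0.14 ± 0.12) highest. The pocket proteins that hold E2F in check had a median of -0.16 with 0 of 3 called, namely Rbl1 (p107) at -0.46 ± 0.52, Rb1 at -0.16 ± 0.11 and Rbl2 (p130) at -0.01 ± 0.66. Genes under mitogen and Wnt signalling, which drive Ccnd1, had 1 of 7 called lower, the ERK phosphatase gene Dusp6 at -1.06 ± 0.27, and a median of 0.0007 for the means of the arrays, but -0.22 on array 1 alone and -0.24 on array 2 alone, with Axin2 at -0.42 ± 0.10 next lowest and Jun (0.13 ± 0.07) and Spry2 (0.08 ± 0.21) highest.

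Among genes that E2F factors switch on, most ratios lay below 0. Of 22 detected E2F targets, 16 were below 0 on both arrays and 0 above, 1 was called lower by the main rule and 8 by the looser rule, with a median of -0.43. The replication helicase subunits Mcm5 (-1.02 ± 0.29) and Mcm6 (-0.88 ± 0.69) were lowest, and Rfc4 (0.18 ± 1.17) and Gins2 (0.004 ± 0.084) highest. Of 13 detected mitotic genes, 12 were below 0 on both arrays, 2 were called lower and 7 by the looser rule, with a median of -0.70. They ran from Birc5 (-1.39 ± 0.22) and Mki67 (-1.35 ± 0.45) to Cdk1 (-0.36 ± 0.07) and Bub1 (-0.28 ± 0.63). Of all detected genes 27.3% were below 0 on both arrays and 24.6% above, 3.53% were called lower and 7.75% were lower by the looser rule. Some dim genes of both lists passed detection only through the wild-type pool, where they were higher, so the counts are not free of that selection. With detection required in both pools, 14 E2F targets (median -0.46) and 7 mitotic genes (median -0.93) remained. The counts stand beside the lower leukocyte markers given above, whose part was not tested. Earlier results of these data were known when the lists were drawn, so their direction is a description.

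**Figure D4:**
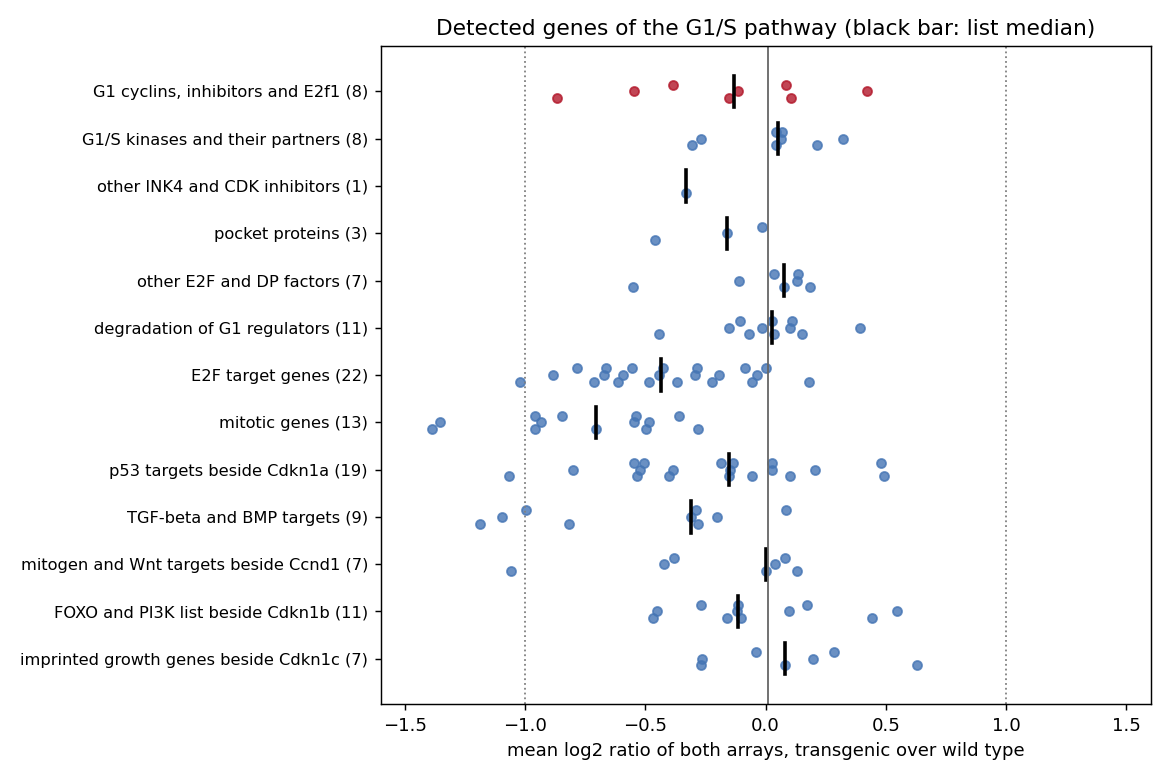
Mean log2 ratio of transgenic over wild type (x axis) of each detected gene, by list (rows, with the number of detected genes in brackets). Black bars are list medians, the grey line is the median of all detected genes and dotted lines mark a 2-fold difference. The G1 cyclins, inhibitors and E2f1 centre on -0.13, the E2F targets on -0.43 and the mitotic genes on -0.70.

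E2F motifs were looked up in the promoters of both sets of genes, since E2F factors are known to act there. The motif was searched in the 250 bases before the annotated start as TTTGGCGC, TTTCCCGC, TTTCGCGC or TTTGCCGC on either strand, where matches on opposite strands can overlap. RefSeq's promoter table holds 6 of the 10 G1 genes and 23 of the 29 E2F targets. A match was found for 0 of the 6 and for 8 of the 23, against 2.16% of all 27025 genes in the table. The 29 genes were listed as known E2F targets, so a larger share than over all genes is not read as a result. Of the 8 targets that were lower by the looser rule, and so were chosen by their values, 6 have a promoter in the table and 5 of those hold a match. The stretches around it in Mcm5 and Mcm6, the E2F targets with the lowest ratios, are given with the motif letters in capitals.
Mcm5: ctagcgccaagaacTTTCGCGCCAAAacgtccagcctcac
Mcm6, far match: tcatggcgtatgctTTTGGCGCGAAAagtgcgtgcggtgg
Mcm6, near match: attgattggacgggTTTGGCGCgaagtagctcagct
In GRCm38.p6 the Mcm5 stretch is chr8:75109342-75109381 on the plus strand, 167 to 128 bases before the start. The Mcm6 stretches are on the minus strand, chr1:128359790-128359829 at 124 to 85 bases before the start and chr1:128359731-128359766 at 61 to 26 bases before it. A missing match says only that these letters are not in that window.

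By the probe that stands for each gene, the gap between arrays was mostly larger than the median over all detected genes. The SD between arrays had a median of 0.32 over the 8 detected genes, against 0.24 over all detected genes, and 7 of the 8 were above that median. Of their other detected probes, the second of Ccnd2 (0.08) and the second of E2f1 (0.15) were below it. The third of Ccnd2 (0.29) and the second of Cdkn1b (0.40) were above it. Between arrays, Pearson's r of the ratios was 0.513 across all detected genes, which do not vary independently. All 9 genes of a ventral prostate secretion list were detected, with probasin (Pbsn) at 0.02 ± 0.50, Spink1 at -5.88 ± 0.21 as the lowest and Azgp1 at 0.39 ± 0.27 as the highest, and 4 were called lower.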

How the data were processed

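Per the labels, 100 ng of RNA of each pool was labelled and hybridised on each of 2 arrays. Per the file headers, Feature Extraction 11.0.1.1 read the spots, and the array design uses mm9. The deposited scanner files hold median spot and background intensity per dye, processed intensity, and a log10 ratio of red over green. The authors' deposited table holds log2 ratios of 15474 non-control probes. Set against Feature Extraction's ratios its columns correlated at r = 1 and differ by constants of -0.08 and -0.05, and both column medians are 0. The filter behind it is unstated.

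Median signals were corrected with normexp (offset 50) and loess-normalized within arrays in limma 3.58.1 (R 4.3.3), with control and outlier spots at weight 0. Spots of a probe were averaged, ratios were turned to transgenic over wild type and the arrays averaged. Levels are channel values after Aquantile normalization. A probe of several spots counted as well above background where most spots did. The brightest detected probe stands for a gene. The procedure was tested on simulated data. The changes put in there were in brighter spots and larger than the mean log2 ratio of any G1 gene. That test therefore does not bear on the small ratios or dim probes given here. Of 41174 probes 27816 matched a RefSeq symbol (GRCm38.p6, names only). No saturated spots were found (0 on each array).

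The genes and lists were chosen with earlier results of these data known. Named genes are the 10 G1 genes, the called genes and the 2 lowest and 2 highest of each of 12 pathway lists, and the lowest and highest of each of 10 marker lists, of which the endothelial list had 4 detected genes, from Emcn (-0.27 ± 0.09) to Cldn5 (-0.03 ± 0.14). A gene that this rule names is not reported here. No genes of like pattern are named, since the arrays give 1 ratio per gene. There were 10 alternatives of processing.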

Additional observations from a re-analysis of the deposited data

How the results depend on the processing

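The count of G1 genes past the rule stayed at 0 higher under all 10 alternatives. It became 1 lower, Ccnd2, with the looser 1.5-fold rule, and ranged from 0 to 1 when either array was left out, with Ccnd2 called on array 1 alone. The median of these genes ranged from -0.23 to -0.14 when either array was left out, and lay between -0.13 and -0.09 under the other 8 alternatives. Ccnd2 (-1.12 to -0.61), Ccnd3 (0.06 to 0.79), Cdkn1a (-0.75 to -0.35) and E2f1 (-0.66 to -0.13) kept the direction of their mean under every alternative that gave a value. Ccne1 (-0.03 to 0.14), Cdkn1b (-0.34 to 0.03), Cdkn1c (-0.39 to 0.56) and Cdkn2c (-0.32 to 0.09) did not, and the cause was not tested. The looser rule and the changes of filter left the ratio of each gene as it was, and leaving out an array only gives the ratio of the other. A kept direction therefore rests on part of the 10 alternatives. E2f1 had a value under 8 of them, and none with detection required in both pools. Under median centring Ccnd3 was below 0 on array 2 (-0.14) and Cdkn1a above 0 on array 1 (0.19).

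Over all detected genes, the count of higher genes was 151, and 99 under median centring, 309 with Feature Extraction's ratios, 472 with the looser rule and 271 to 450 when either array was left out. The count of lower genes was 491, and 938 with Feature Extraction's ratios, 267 with detection in both pools, 1077 with the looser rule and 589 to 599 when either array was left out. The share of higher genes among calls was 23.5%, and 42.9% on array 1 alone. The medians of E2F targets (-0.65 to -0.35) and mitotic genes (-1.37 to -0.49) stayed below 0 under all alternatives, of which the looser rule cannot change a median. No paired analysis was possible because each genotype has 1 pool. Dim signals limit Ccne1, Ccne2 and E2f1.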
